A study of Mus musculus with 2 samples.

Results

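The genes described here are 8 of the 32285 gene identifiers counted in these libraries, chosen by name because their products make, sense or break down prostanoids. They are the cyclooxygenases *Ptgs1* and *Ptgs2*, the terminal synthases *Ptgis*, *Ptges*, *Ptgds* and *Tbxas1*, the receptor *Ptger4* and the breakdown enzyme *Hpgd*. All 8 were in both matrices. The data are single-cell RNA-seq counts of live CD31+CD45- cells sorted from YUMMER1.7 melanoma tumors, with 1 control and 1 Dnmt1iECKO library, each made from the pooled tumors of 3 female mice aged 8 to 10 weeks. The control label gives C57BL/6 as genotype, while the study's methods give *VECad*-CreERT2;*ZsGreen* reporter mice as controls, and the knockout is labelled Cdh5CreERT2;Dnmt1fl/fl;ZsGreenlsl/lsl. In the knockout, tamoxifen-induced Cre acts in all *Cdh5*-expressing endothelial cells (ECs), so *Dnmt1*, the maintenance DNA methyltransferase, is targeted in every vascular bed and not only in the tumor. The labels give subcutaneous tumors and the study's text lung tumors after tail vein injection, and cells with the markers of alveolar epithelium were present in both libraries.

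Prostanoids are short-lived lipid signals made from arachidonic acid. A phospholipase frees the acid, a cyclooxygenase converts it to the unstable prostaglandin H2, and a terminal synthase of the cell decides which prostanoid leaves: prostacyclin, which keeps platelets quiet and vessels open, thromboxane, which does the reverse, or the prostaglandins E2 and D2. The lung is known for taking prostaglandins out of the blood, by import through a transporter and oxidation by the enzyme that *Hpgd* encodes.

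The libraries held 9301 control and 9522 Dnmt1iECKO barcodes with 123830489 and 141433493 unique molecular identifiers (UMIs), medians of 8904 and 8762 per cell, and 29 barcode sequences occurred in both. After filters and doublet removal 7764 and 7839 cells were kept. ECs were cells with a UMI of *Cdh5* or *Pecam1*, none of *Ptprc* and no marker set of another lineage, which gave 4784 control and 2061 Dnmt1iECKO cells with 60851610 and 31187767 UMIs. Cells with UMIs of both genes of 1 pair and of no other were vein-like (*Slc6a2* and *Selp*, 57 and 66 cells), aerocyte-like (*Ednrb* and *Car4*, 1069 and 329), general capillary-like (*Kit* and *Bmp6*, 2003 and 809) or artery-like (*Gja5* and *Bmx*, 30 and 30). Of 6 further markers of each class, 5 or 6 were at least 2-fold higher in it than in the other ECs in both libraries. Another 792 and 327 ECs held 2 or more pairs and 798 and 484 held none. Vein-like cells were 1.19% (0.904 to 1.54) of control and 3.20% (2.49 to 4.06) of Dnmt1iECKO ECs. *Dnmt1* itself had 55.3 CPM (counts per 1000000 UMIs) in control and 36.7 in Dnmt1iECKO ECs, 55.3 and 27.3 in general capillary-like cells, but 36.9 and 39.2 in vein-like cells, where it had 33 and 48 UMIs. In vein-like cells the *Dnmt1* ratio, on the log2 scale, was 0.089 (-0.58 to 0.77), an interval that holds 0. A loss of the target transcript was thus not seen in this class. The counted tags lie near the 3′ end of transcripts and need not cover the deleted exons. Whether the gene was deleted in these cells was not tested.

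Levels are CPM, the UMIs of a gene per 1000000 UMIs of the same class and library, with exact Poisson 95% intervals. Ratios are Dnmt1iECKO over control on the log2 scale, with the exact interval conditional on the sum of both counts, and are given only where both libraries together held at least 50 UMIs. With 1 library per condition no test was possible, and every interval covers counting error only, not the spread between mice. Those of levels and ratios treat UMIs as independent and leave out the spread between cells as well. Fewer cells of a kind and less RNA per cell cannot be told apart where a whole compartment is summed. Shares of a gene's UMIs refer to the cells kept after the sort, not to the whole tissue, and depend on their make-up. ECs were 61.3% of control and 26.1% of Dnmt1iECKO kept cells, and T cell-like cells 3.86% and 17.7%. A gene is called higher or lower below where its ratio passed 1.5-fold.

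The EC rule also admitted deep cells that carry little endothelial RNA. Cells with at least 2 *Hmga2* UMIs after thinning to 2000 UMIs per cell, fewer than 3 endothelial markers and no *Ptprc* UMI (a group defined after seeing the data, 188 control and 201 Dnmt1iECKO cells) had a summed level of 179 and 150 CPM of the 9 endothelial markers, against 8342 and 6801 CPM in all ECs. The EC rule took in 48 of the control and 44 of the Dnmt1iECKO cells, of which 45 and 43 were among the ECs with no pair and 2 and 0 in a named class. Values for all ECs are therefore given beside those of the 4 named classes.

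Since the knockout targets the enzyme that copies CpG methylation, the promoter windows of *Ptgs2* and *Tbxas1*, the former higher in Dnmt1iECKO vein-like and the latter lower in Dnmt1iECKO aerocyte-like cells below, are shown from 250 bases before to 50 after the RefSeq start on GRCm38.p6, with every CpG in capitals. The first is chr1:150099781-150100080 on the plus strand and the second chr6:38918736-38919035 on the plus strand, at a RefSeq start inside the longer GENCODE span.
Ptgs2: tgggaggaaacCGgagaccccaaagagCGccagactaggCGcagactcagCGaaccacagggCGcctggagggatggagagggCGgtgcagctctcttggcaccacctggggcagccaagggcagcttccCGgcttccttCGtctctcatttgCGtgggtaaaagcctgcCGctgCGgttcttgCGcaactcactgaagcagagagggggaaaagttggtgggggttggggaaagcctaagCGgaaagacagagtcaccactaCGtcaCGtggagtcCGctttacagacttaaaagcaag
Tbxas1: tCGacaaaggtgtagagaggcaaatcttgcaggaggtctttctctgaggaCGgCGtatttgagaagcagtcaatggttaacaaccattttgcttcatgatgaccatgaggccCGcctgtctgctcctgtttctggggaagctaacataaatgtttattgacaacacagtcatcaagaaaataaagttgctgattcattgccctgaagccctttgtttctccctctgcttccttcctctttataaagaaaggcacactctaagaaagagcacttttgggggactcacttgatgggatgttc

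The *Ptgs2* window holds 16 CpGs and the *Tbxas1* window 4, against a median of 7 over 32851 RefSeq windows of the same length, of which 67.0% and 31.4% hold fewer. The windows of *Ptgs1*, *Ptges*, *Ptgds*, *Ptger4* and *Hpgd* hold 6, 10, 2, 25 and 12, and that of *Ptgis* was not among the windows. Of the motifs searched on both strands, the *Ptgs2* window holds TTGCGCAA (in 0.183% of all windows), CGTCA (20.8%) and CACGTG (7.15%), the latter pair overlapping. The *Tbxas1* and *Hpgd* windows hold TATAAA (13.6%), the *Ptger4* window CCAAT (37.4%), and no member's window holds the kappa B consensus (0.155%). No methylation was measured in these libraries, and these letters are a description of the reference.

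**Figure D1:**
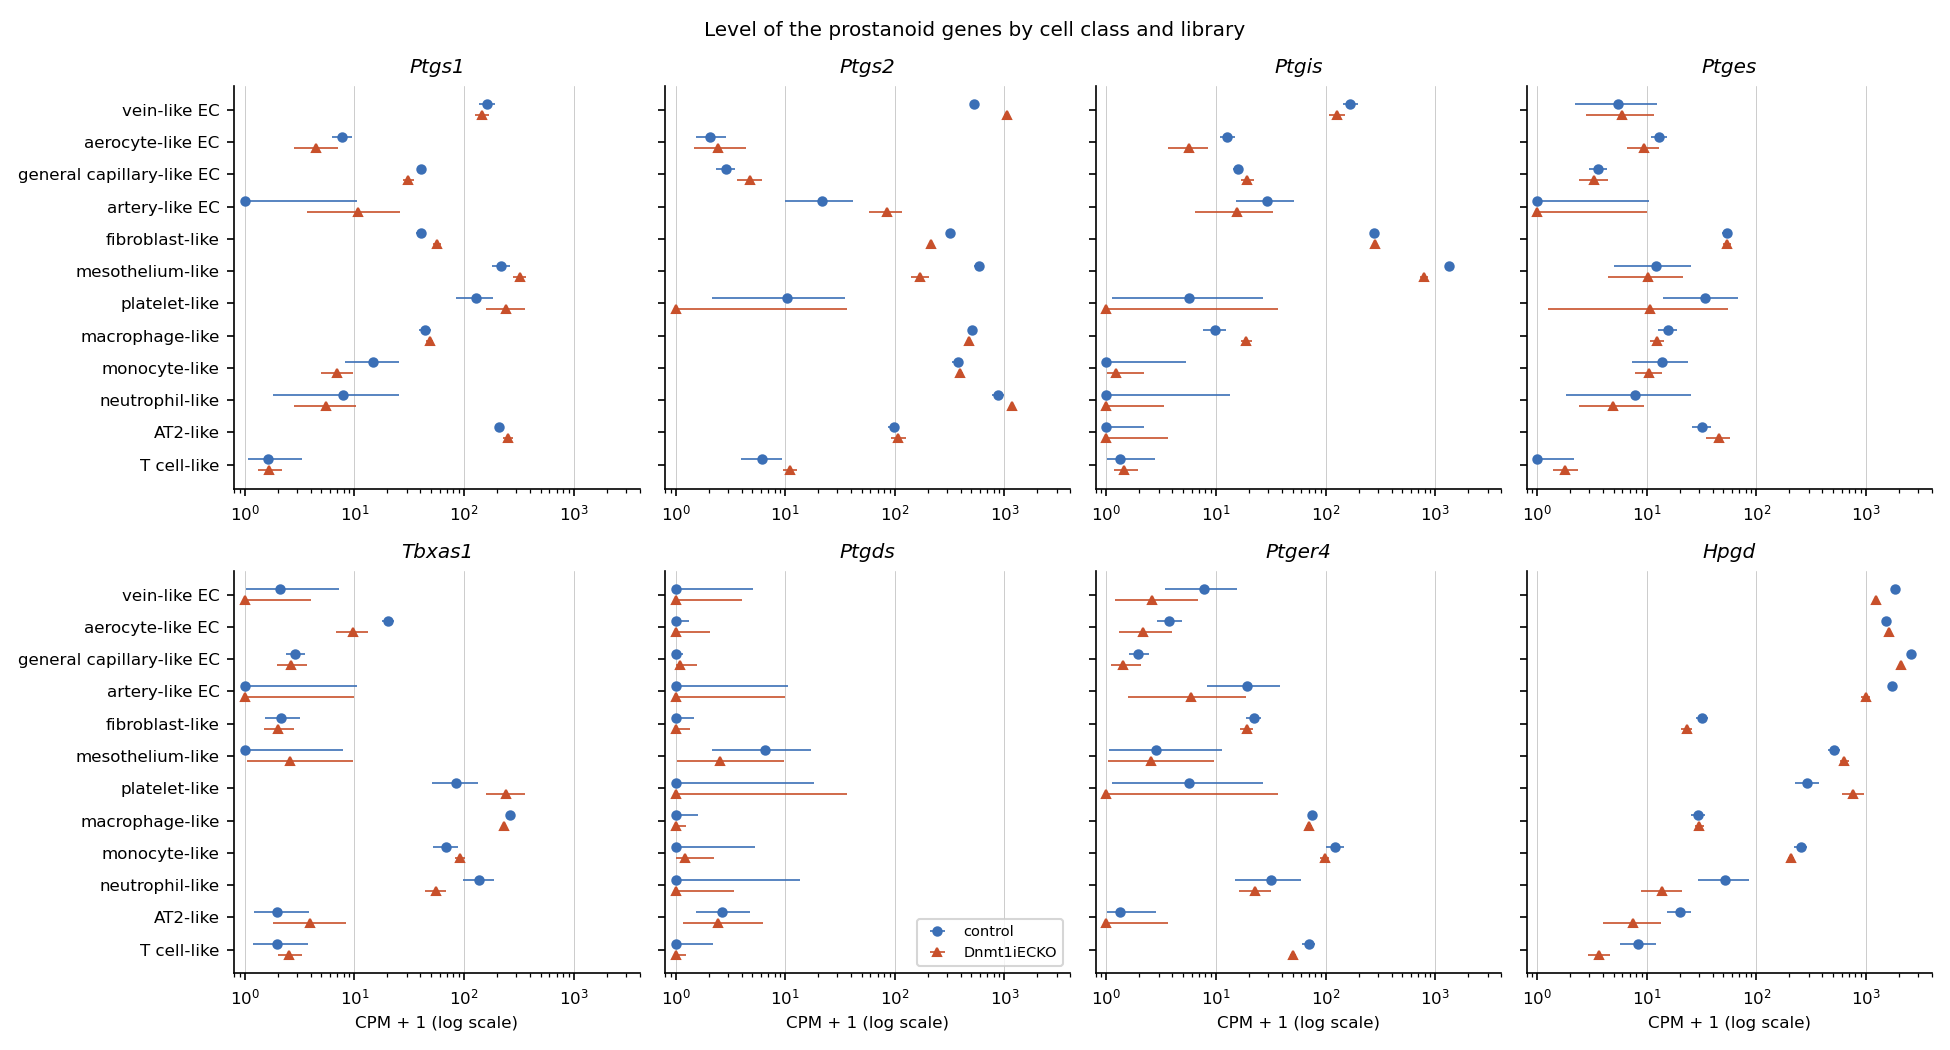
Level of each gene in 12 cell classes, as CPM plus 1 on a log axis, in the control (blue circles) and Dnmt1iECKO (orange triangles) libraries; bars are exact Poisson 95% intervals. *Hpgd* sits near or above 990 CPM in all 4 endothelial classes, while *Ptgs2* and *Ptgis* among ECs are highest in the vein-like class and *Tbxas1* is high in macrophage-like and platelet-like cells.

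*Ptgs1* encodes cyclooxygenase-1, the form that many cells keep at a steady level. Among ECs its level was 161 CPM (136 to 189) in control vein-like cells and 145 CPM (125 to 168) in those of Dnmt1iECKO, from 144 and 178 UMIs. General capillary-like cells had 39.9 and 30.1 CPM, and aerocyte-like cells 6.74 and 3.47 CPM. Artery-like cells had 0 and 4 UMIs and lymphatic-like cells none in either library. For the latter a floor of 3 counts, not the exact interval, lies at 5.42 and 13.3 CPM. The vein-like class thus stood above the capillary classes in both libraries, and the capillary classes stood apart from each other, with no overlap of intervals. Outside the endothelium, mesothelium-like cells (218 and 321 CPM), alveolar type 2-like cells (208 and 250 CPM) and platelet-like cells (126 and 242 CPM) had ranges that overlapped from each to the next in this order, and that of platelet-like cells overlapped that of the vein-like class. Fibroblast-like cells had 39.8 and 55.7 CPM, macrophage-like cells 43.0 and 47.8 CPM, and T cell-like cells 0.641 and 0.648 CPM.

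Between the libraries, *Ptgs1* in general capillary-like cells had a log2 ratio of -0.41 (-0.60 to -0.21), from 924 control and 290 Dnmt1iECKO UMIs. In aerocyte-like cells the ratio was -0.96 (-1.97 to -0.072), from 76 and 12 UMIs, and it ranged from -1.32 to -0.58 over 12 other choices of cells and scaling. In vein-like cells it was -0.15 (-0.47 to 0.18), an interval that holds 0. Summed over all ECs the level was 32.5 and 33.7 CPM, a ratio of 0.052 (-0.057 to 0.16), and with each class weighted by its control share the ratio was -0.23. The lower levels in the capillary classes are thus not seen in the plain sum.

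*Ptgs2* encodes cyclooxygenase-2, the inducible form, which is switched on by cytokines and mechanical stress and also by tissue dissociation. Its endothelial transcripts lay in a small number of cells. Vein-like cells reached 527 CPM (481 to 577) in the control library and 1048 CPM (991 to 1107) in the Dnmt1iECKO library, against 1.86 and 3.74 CPM in general capillary-like, 1.06 and 1.45 CPM in aerocyte-like, and 20.6 and 83.1 CPM in artery-like cells, the last from 8 and 34 UMIs. With 1.19% of control ECs, the vein-like class held 33.1% of endothelial *Ptgs2* UMIs, and with 3.20% of Dnmt1iECKO ECs it held 61.4%. Most of the rest lay in cells that carried the vein pair together with another pair: 53 control and 37 Dnmt1iECKO cells held 657 and 486 *Ptgs2* UMIs of the 675 and 504 in all cells with 2 or more pairs.

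At the level of single cells, 37 of 57 control and 50 of 66 Dnmt1iECKO vein-like cells held a *Ptgs2* UMI, with a median of 2 and 6 UMIs and a highest cell of 71 and 175. The 5 highest control and 7 highest Dnmt1iECKO cells held more of the class's UMIs than all its other cells together. The cells of both libraries overlapped widely, from 0 UMIs upwards. After thinning every cell to 2000 UMIs, the share of vein-like cells with a *Ptgs2* UMI was 31.6% (19.9 to 45.2) in control and 53.0% (40.3 to 65.4) in Dnmt1iECKO, intervals that overlap, and the share expected over all possible thinnings was 34.1% and 53.7%. T cell-like cells, thinned likewise, had 0% and 0.289%. The unthinned shares were 64.9% and 75.8% in vein-like cells at median depths of 14098 and 15063 UMIs, and 0.997% and 1.87% in T cell-like cells at 9024 and 8952.5.

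**Figure D2:**
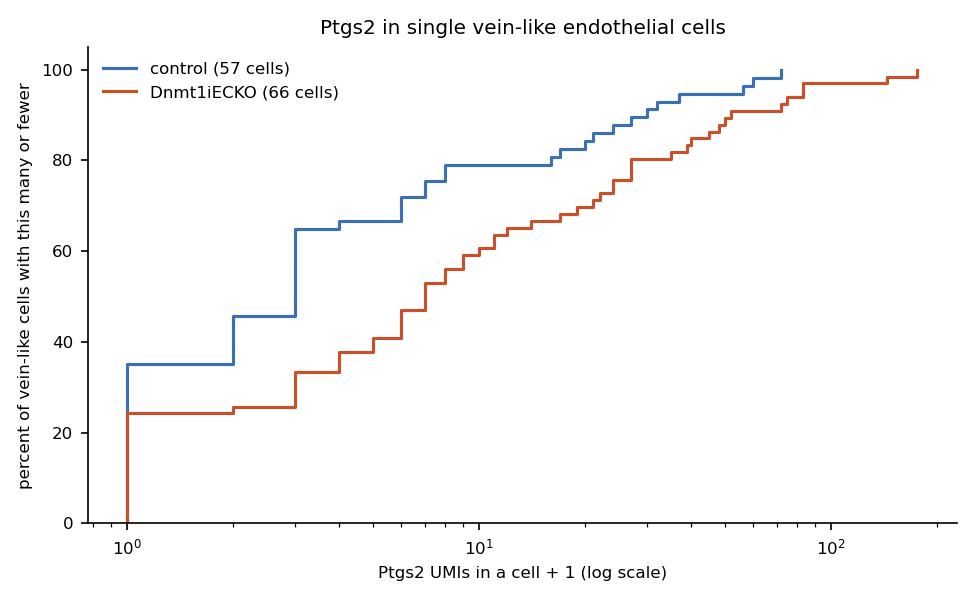
Cumulative share of vein-like ECs (vertical axis, percent) by their number of *Ptgs2* UMIs plus 1 (horizontal log axis), for 57 control (blue) and 66 Dnmt1iECKO (orange) cells. The Dnmt1iECKO line lies to the right of the control line, with medians of 6 and 2 UMIs per cell, and the highest cells hold 175 and 71.

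The ratio of *Ptgs2* in vein-like cells was 0.99 (0.84 to 1.15), from 472 and 1283 UMIs, and without the highest cell of each library the levels were 455 and 933 CPM. It ranged from 0.39 to 1.08 over 12 other choices. The smaller values came where the class was drawn more widely: 0.39 with cells taken by at least 3 vein markers (110 and 142 cells), and 0.53 with cells of 2 pairs put in the class with more UMIs (90 and 95 cells), both under 1.5-fold. The macrophage marker list summed to 5.58 and 13.1 CPM in vein-like cells, against 8702 and 9945 CPM in macrophage-like cells, and the neutrophil list to 3.35 and 7.35 CPM. Of 10 immediate early genes, which are known to rise in dissociated tissue (a list chosen after seeing the data), 8 had a ratio above 0 in vein-like cells, where 45.1% of all tested genes did, and of these *Nr4a1* alone passed 1.5-fold. Their median ratio was 0.21 and their summed levels 16984 and 18356 CPM. The part of these marker and early genes in the *Ptgs2* result was not tested.

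In general capillary-like cells the *Ptgs2* ratio was 1.01 (0.33 to 1.68), but it rested on 43 and 36 UMIs, 20 of the latter in 1 cell. Without the highest cell of each library the levels were 1.30 and 1.67 CPM, and with the minimum of detected genes at 200 the ratio turned to -0.15. Over all ECs *Ptgs2* had 23.5 and 66.9 CPM, a ratio of 1.51 (1.41 to 1.61), which was 0.70 with the classes weighted by their control shares. The difference over all ECs was therefore larger than that within the vein-like class, and the vein-like class was also a larger share of the Dnmt1iECKO ECs. ECs held 12.8% and 9.41% of all *Ptgs2* UMIs in the kept cells, and cells in no class 24.4% and 29.8%. Neutrophil-like cells had 874 and 1177 CPM, with a range that overlapped that of vein-like cells, macrophage-like cells 504 and 475 CPM, monocyte-like cells 373 and 396 CPM, and fibroblast-like cells 315 and 214 CPM. In mesothelium-like cells the level was 587 and 170 CPM, but 254 of the 317 control UMIs lay in 1 of 11 cells, and without the highest cells it was 158 and 140 CPM.

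*Ptgis* encodes prostacyclin synthase. Its highest level was in mesothelium-like cells, at 1327.5 CPM in control and 786 CPM in Dnmt1iECKO, from 11 cells in each library, of which 1 control cell held 298 of 717 UMIs. Fibroblast-like cells followed with 277 and 281 CPM, apart from the mesothelium-like class above and the vein-like class below. Vein-like ECs had 168 CPM (142 to 197) and 127 CPM (107 to 148), overlapping the mural-like cells (100 and 183 CPM). The other endothelial classes were far lower, at 14.9 and 18.4 CPM in general capillary-like, 11.7 and 4.62 CPM in aerocyte-like, and 28.4 and 14.7 CPM in artery-like cells from 11 and 6 UMIs. Of all *Ptgis* UMIs, 43.1% and 45.7% lay in fibroblast-like cells and 21.1% and 10.1% in ECs. Alveolar type 2-like, natural killer-like and neutrophil-like cells held none in either library.

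The *Ptgis* ratio in aerocyte-like cells was -1.34 (-2.19 to -0.59), from 132 and 16 UMIs, with a UMI in 8.70% of control and 3.95% of Dnmt1iECKO cells before thinning. It stayed below 0 in 12 of 12 other choices, but was -0.21 (-0.60 to 0.15) with cells of 2 pairs put in the class with more UMIs. In vein-like cells it was -0.40 (-0.74 to -0.070), and in 12 other choices it ranged from -0.48 to -0.34. In general capillary-like cells it was 0.30 (0.034 to 0.57), with 66 of the 177 Dnmt1iECKO UMIs in 1 cell: without the highest cells the levels were 14.0 and 11.6 CPM, and the ratio was below 0 in 4 of 12 other choices. The fibroblast list summed to 95.9 and 145 CPM in these cells, and its part in the result was not tested. Over all ECs the level was 17.5 and 21.6 CPM (0.30), or 0.051 at control class shares.

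Cells with UMIs of both a cyclooxygenase gene and *Ptgis* were counted by class. Such counts follow the level of each gene, and no count expected from the levels was computed. They therefore do not show whether the transcripts meet in single cells beyond what their levels give. After thinning, a UMI of *Ptgs1* or *Ptgs2* together with one of *Ptgis* was found in 6 of 57 control and 9 of 66 Dnmt1iECKO vein-like cells, in 3 of 11 and 5 of 11 mesothelium-like cells, and in 28 of 268 and 28 of 388 fibroblast-like cells. It was found in 5 of 1969 and 2 of 792 general capillary-like cells and in none of 1022 and 311 aerocyte-like cells, which allows a share of up to 0.360% and 1.18%. At 2000 UMIs a cell that expresses both genes at a low level can show neither.

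*Ptges* encodes the inducible microsomal prostaglandin E synthase. In the 4 named endothelial classes it was scarce: aerocyte-like cells had 12.0 and 8.38 CPM (135 and 29 UMIs), general capillary-like cells 2.59 and 2.29 CPM, vein-like cells 4 and 6 UMIs, and artery-like cells 0 and 0 UMIs. Fibroblast-like cells had 52.4 and 53.2 CPM and alveolar type 2-like cells 30.8 and 44.4 CPM. The highest level was in the *Hmga2*-high cells, at 116 CPM (108 to 124) and 108 CPM (102 to 114), which held 32.8% and 41.3% of all *Ptges* UMIs. *Hmga2* was fixed as a tumor marker, yet *Sox10*, *Mlana*, *Dct*, *Tyrp1* and *Tyr* of that list of 8 were at 0 in the control cells of this group, and *Mlana*, *Dct* and *Tyrp1* in its Dnmt1iECKO cells, where *Sox10* and *Tyr* were detected. No cell type is given to it here.

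The sum over all ECs gave *Ptges* 13.9 and 23.9 CPM, a ratio of 0.78 (0.64 to 0.93). Of these UMIs, 65.7% in control and 87.1% in Dnmt1iECKO lay in the ECs with no pair. The 48 and 44 *Hmga2*-high cells among the ECs alone held 306 of the 846 control and 540 of the 746 Dnmt1iECKO UMIs. The ratio turned to -0.42 when ECs needed at least 3 of 9 endothelial markers, to -0.78 when cells with a UMI of *Epcam*, *Cspg4* or *Myh11* were left out, and to -0.27 as a mean over cells. Within aerocyte-like cells it was -0.52 (-1.15 to 0.072) and within general capillary-like cells -0.18 (-0.96 to 0.55), both intervals holding 0, and the latter was above 0 in 5 of 12 other choices. The *Ptges* difference over all ECs is thus not seen in either named class that had the minimum.

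*Tbxas1* encodes thromboxane synthase, known from platelets and macrophages. Macrophage-like cells reached 264 CPM (252 to 277) in control, against 229 CPM (221 to 237) in Dnmt1iECKO, and held 46.9% and 50.3% of its UMIs. Platelet-like cells had 84.3 and 242 CPM, from 18 and 25 UMIs, while the 8 platelet markers summed to 13857 and 32005 CPM in the same cells, the fibroblast markers to 2290 and 145 CPM and the tumor markers to 515 and 9.70 CPM. The part of this difference in make-up in any platelet-like value was not tested. Neutrophil-like cells had 136 and 54.2 CPM and monocyte-like cells 67.3 and 91.0 CPM, and in the order macrophage-like, platelet-like, neutrophil-like, monocyte-like the ranges overlapped from each to the next. A UMI of *Ptgs1* or *Ptgs2* with one of *Tbxas1* was found after thinning in 34 of 171 control and 56 of 446 Dnmt1iECKO macrophage-like cells.

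Among ECs *Tbxas1* was a gene of the aerocyte-like class, with 19.4 CPM (16.9 to 22.2) in the control library and 8.67 CPM (5.85 to 12.4) in the Dnmt1iECKO library, against 1.90 and 1.66 CPM in general capillary-like cells and 1 and 0 UMIs in vein-like cells. It was found in 145 of 1069 control and 19 of 329 Dnmt1iECKO aerocyte-like cells at median depths of 10014 and 9978 UMIs. The ratio was -1.16 (-1.77 to -0.61), from 219 and 30 UMIs, and it ranged from -1.36 to -0.98 over 12 other choices. The single thinned draw gave shares of 3.23% and 3.54%, and the share expected over all possible thinnings was 3.56% and 1.49%, so the draw for the Dnmt1iECKO cells lay above its expectation. The platelet list summed to 109 and 102 CPM in aerocyte-like cells and the macrophage list to 8.43 and 17.6 CPM, and their part in the result was not tested. Over all ECs the level was 6.54 and 2.85 CPM, a ratio of -1.20 that ranged from -1.22 to -0.92 over 11 other choices. ECs that bore at least 3 platelet markers, which were left out of these values, had 38.4 and 28.9 CPM.

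*Ptgds* encodes lipocalin-type prostaglandin D synthase. It had 1 UMI in the ECs of each library, 3 and 1 in mesothelium-like and 5 and 2 in alveolar type 2-like cells, and 15 and 9 over all kept cells, so no comparison was made.

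*Ptger4* encodes EP4, a prostaglandin E2 receptor that raises cyclic AMP and is known on leukocytes. Dendritic-like cells had 180 and 208 CPM, natural killer-like cells 126 and 139 CPM and monocyte-like cells 122 and 97.2 CPM, with overlap from each to the next. Macrophage-like cells had 74.5 and 69.3 CPM and T cell-like cells 69.3 and 49.4 CPM, a ratio in T cell-like cells of -0.49 (-0.71 to -0.26), while the share of thinned T cell-like cells with a UMI was 11.0% and 10.8%. Fibroblast-like cells held 165 and 196 UMIs. ECs had 93 control and 30 Dnmt1iECKO UMIs, or 1.53 and 0.962 CPM, with a ratio of -0.67 (-1.31 to -0.060). This ratio was under 1.5-fold without doublet removal, at -0.42 (-1.03 to 0.15), and as a mean over cells, at -0.12. All 7 control UMIs in artery-like cells were in 1 cell.

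*Hpgd* encodes 15-hydroxyprostaglandin dehydrogenase, which inactivates prostaglandins. It was the member spread most widely over ECs: 86.0% of its control and 77.1% of its Dnmt1iECKO UMIs lay in them, and after thinning 90.6% and 85.5% of general capillary-like, 85.6% and 90.4% of aerocyte-like, 71.9% and 69.7% of vein-like and 80.0% and 63.3% of artery-like cells had a UMI. T cell-like cells, thinned likewise, had 2.34% and 0.794%. The levels were 2552 and 2100 CPM in general capillary-like cells, 1508 and 1627 CPM in aerocyte-like, 1840 and 1233 CPM in vein-like, and 1713 and 990 CPM in artery-like cells. General capillary-like cells thus had the highest level of the 4 classes in both libraries, and the other 3 changed order between them. Lymphatic-like ECs had 202 and 84.4 CPM, with a UMI in 11.4% and 18.8% of 35 and 16 cells. Outside the endothelium mesothelium-like cells had 511 and 635 CPM and monocyte-like cells 253 and 208 CPM, against 31.0 and 22.1 CPM in fibroblast-like cells. Platelet-like cells had 290 and 766 CPM at median depths of 1041 and 937.5 UMIs, beside 969 and 1096 CPM of the endothelial list.

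The *Hpgd* ratio had the narrowest intervals. It was -0.28 (-0.30 to -0.26) in general capillary-like cells, from 59127 and 20212 UMIs, -0.58 (-0.68 to -0.48) in vein-like and -0.79 (-0.97 to -0.61) in artery-like cells, but 0.11 (0.066 to 0.15) in aerocyte-like cells. All 12 other choices kept the sign in each of these classes, with a range of 0.086 to 0.14 in aerocyte-like, -0.30 to -0.21 in general capillary-like, -0.60 to -0.19 in vein-like and -1.04 to -0.21 in artery-like cells. Over all ECs it was -0.34 (-0.36 to -0.33), from 1974 and 1557 CPM, and -0.19 at control class shares.

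**Figure D3:**
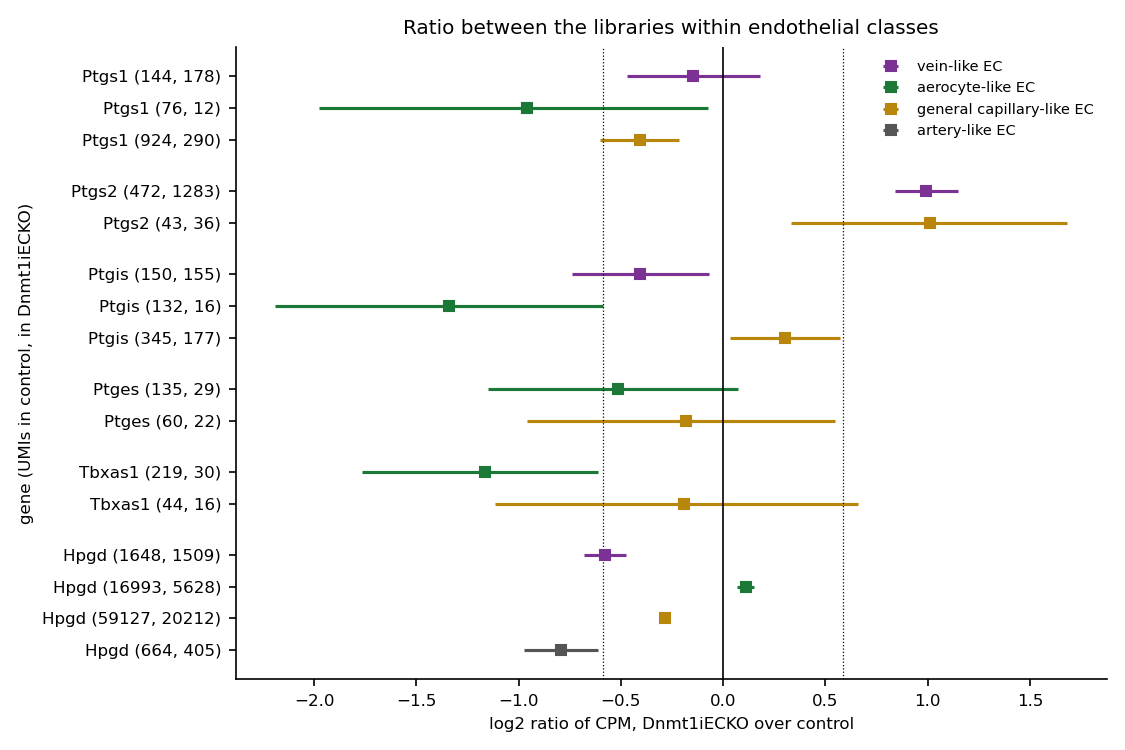
Log2 ratio of CPM, Dnmt1iECKO over control (horizontal axis), of each gene with at least 50 UMIs in a named endothelial class (colours), with exact conditional 95% intervals; labels give the UMIs in control and Dnmt1iECKO, and dotted lines mark 1.5-fold. *Ptgs2* in vein-like cells lies at 0.99, the aerocyte-like ratios of *Ptgs1*, *Ptgis* and *Tbxas1* at -0.96, -1.34 and -1.16, and those of *Hpgd* between -0.79 and 0.11.

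Counted over the members, 7 of 8 had the minimum of 50 UMIs in all ECs, of which *Ptgs2* and *Ptges* were higher and *Tbxas1* and *Ptger4* lower, the calls of *Ptges* and *Ptger4* being lost under other choices given above, where 10.1% of all tested genes were higher and 3.54% lower. In vein-like cells 4 had the minimum and *Ptgs2* was higher, against 6.3% higher and 6.72% lower among all tested genes. In aerocyte-like cells 5 had it, and *Ptgs1*, *Ptgis* and *Tbxas1* were lower, against 2.84% higher and 4.65% lower. In general capillary-like cells 6 had it and *Ptgs2* was higher, against 3.63% higher and 4.02% lower. In artery-like cells *Hpgd* alone had it and was lower, against 7.03% higher and 10.3% lower. Of these class calls, only *Tbxas1* in aerocyte-like cells stayed past 1.5-fold in all 12 other choices of cells and scaling. *Ptgs2* fell to 0.39 in vein-like cells and turned to -0.15 in general capillary-like cells. In aerocyte-like cells *Ptgs1* and *Ptgis* came to -0.58 and -0.21, and *Hpgd* in artery-like cells came to -0.21. The minimum admits a gene by the sum of both libraries, so members below it are not shown to be equal.

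**Figure D4:**
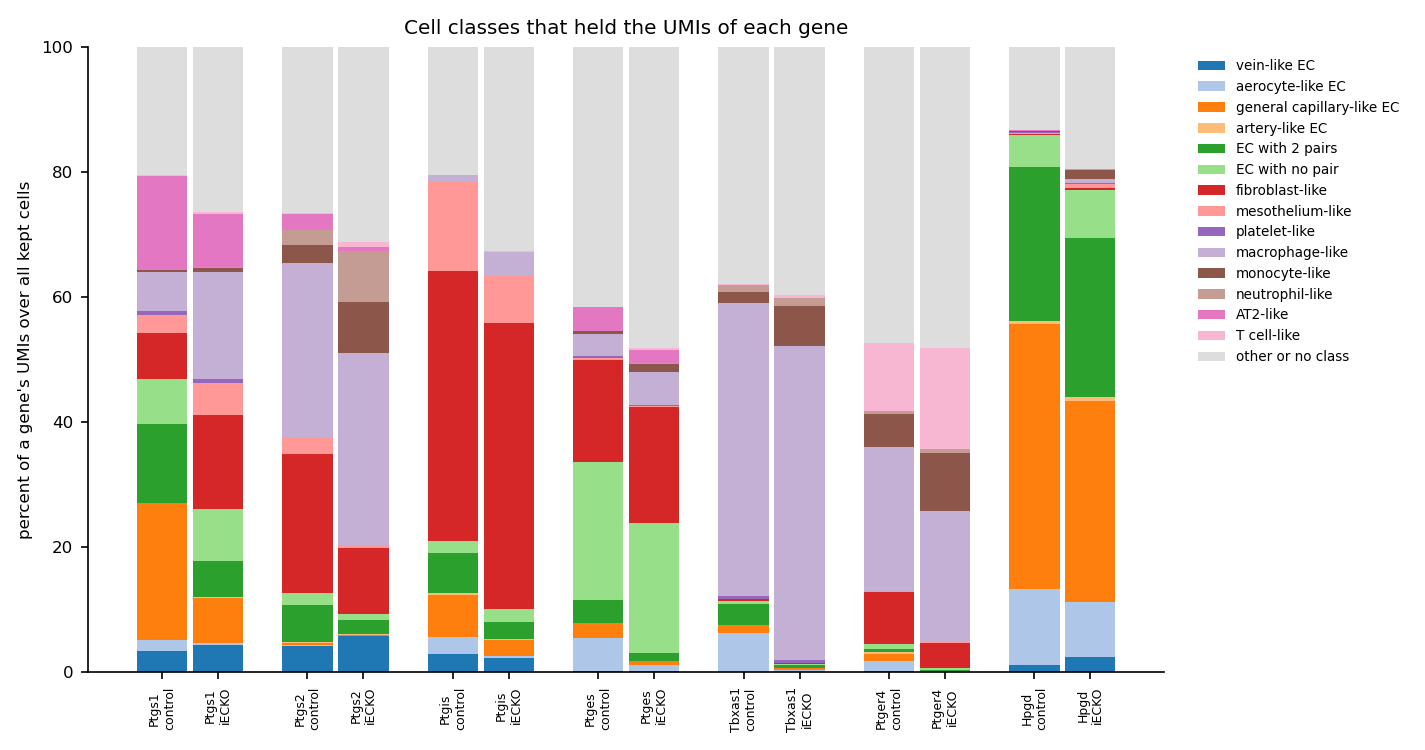
Share of each gene's UMIs (vertical axis, percent of all kept cells) held by each cell class in the control (left bar) and Dnmt1iECKO (right bar) library; *Ptgds*, with 15 and 9 UMIs, is left out, and grey holds other classes and cells in no class. ECs held 86.0% and 77.1% of *Hpgd* UMIs but 12.8% and 9.41% of *Ptgs2* UMIs, and macrophage-like cells 46.9% and 50.3% of *Tbxas1* UMIs.

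Beside the 8 members, 29 other genes of the arachidonate pathway were listed, of which 20 had at least 50 UMIs in all ECs. There *Pla2g4a*, *Ptgfr* and *Ltc4s* were higher and *Tbxa2r* was lower, with a median ratio of -0.013 against -0.0037 over all tested genes. Of all tested genes 10.1% were higher and 3.54% lower in all ECs. *Ptgfr* rested on 33 and 26 UMIs, with a ratio of 0.62 (-0.18 to 1.41) whose interval holds 0. In vein-like cells 8 had the minimum (median -0.0023 against -0.044 for all genes) and *Ltc4s* was higher, against 6.3% higher and 6.72% lower among all tested genes. In aerocyte-like cells 16 had it (median -0.11 against -0.0015), *Alox5ap* was higher and *Pla2g4a*, *Tbxa2r* and *Alox12* were lower, against 2.84% higher and 4.65% lower. The intervals of *Alox5ap* (0.83, -0.086 to 1.70, from 33 and 18 UMIs) and *Alox12* (-0.60, -1.58 to 0.28, from 64 and 13 UMIs) hold 0. In general capillary-like cells 18 had it (median 0.075 against -0.013), with *Pla2g4a*, *Ptger1* and *Alox12* higher and *Ptges2* lower, against 3.63% higher and 4.02% lower. The *Ptger1* ratio of 0.70 (-0.092 to 1.47) came from 37 and 25 UMIs, and its interval holds 0. Of the 3 in artery-like cells (median 0.29 against -0.041) none passed 1.5-fold, against 7.03% higher and 10.3% lower.

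*Pla2g4a* encodes the cytosolic phospholipase that frees arachidonic acid. Its level in vein-like cells was 231 CPM (201 to 265) in the control library and 232 CPM (206 to 261) in the other, against 41.3 and 31.8 CPM in artery-like, 4.97 and 1.45 CPM in aerocyte-like and 3.41 and 6.75 CPM in general capillary-like cells. Of the 4 named classes the vein-like class thus had the highest level of *Pla2g4a*, *Ptgs1*, *Ptgs2* and *Ptgis* in both libraries. Of these 4 genes *Ptgs2* was the one past 1.5-fold between the libraries. Its ratio fell under 1.5-fold, to as low as 0.39, where the class was drawn more widely. The prostacyclin receptor gene *Ptgir* had 0 UMIs in vein-like cells of both libraries and 25 and 8 in all ECs.

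*Tbxa2r*, the thromboxane receptor gene, reached 89.0 CPM (83.6 to 94.7) in control aerocyte-like cells and 58.1 CPM (50.3 to 66.7) in those of Dnmt1iECKO, a ratio of -0.62 (-0.84 to -0.40), and 6.26 and 5.19 CPM in general capillary-like cells. Both the synthase and the receptor of thromboxane were thus highest in the aerocyte-like class among the capillary classes and lower there in the Dnmt1iECKO library. *Slco2a1*, the prostaglandin transporter gene whose product imports the substrate of the *Hpgd* enzyme, had 846 and 896 CPM in general capillary-like, 722 and 961 CPM in aerocyte-like and 630 and 626 CPM in vein-like cells. Its ratio in aerocyte-like cells was 0.41 (0.35 to 0.47), the same sign as that of *Hpgd* there. In general capillary-like cells it was 0.082 (0.045 to 0.12), the opposite sign to that of *Hpgd*. In vein-like and artery-like cells it was -0.0096 and 0.33, with intervals that hold 0, and over all ECs it was -0.044. *Ltc4s*, the leukotriene C4 synthase gene, had a ratio of 1.10 over all ECs but 0.68 (-0.21 to 1.63) in vein-like, 0.44 (-0.35 to 1.18) in aerocyte-like and 0.24 (-0.18 to 0.64) in general capillary-like cells.

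**Figure D5:**
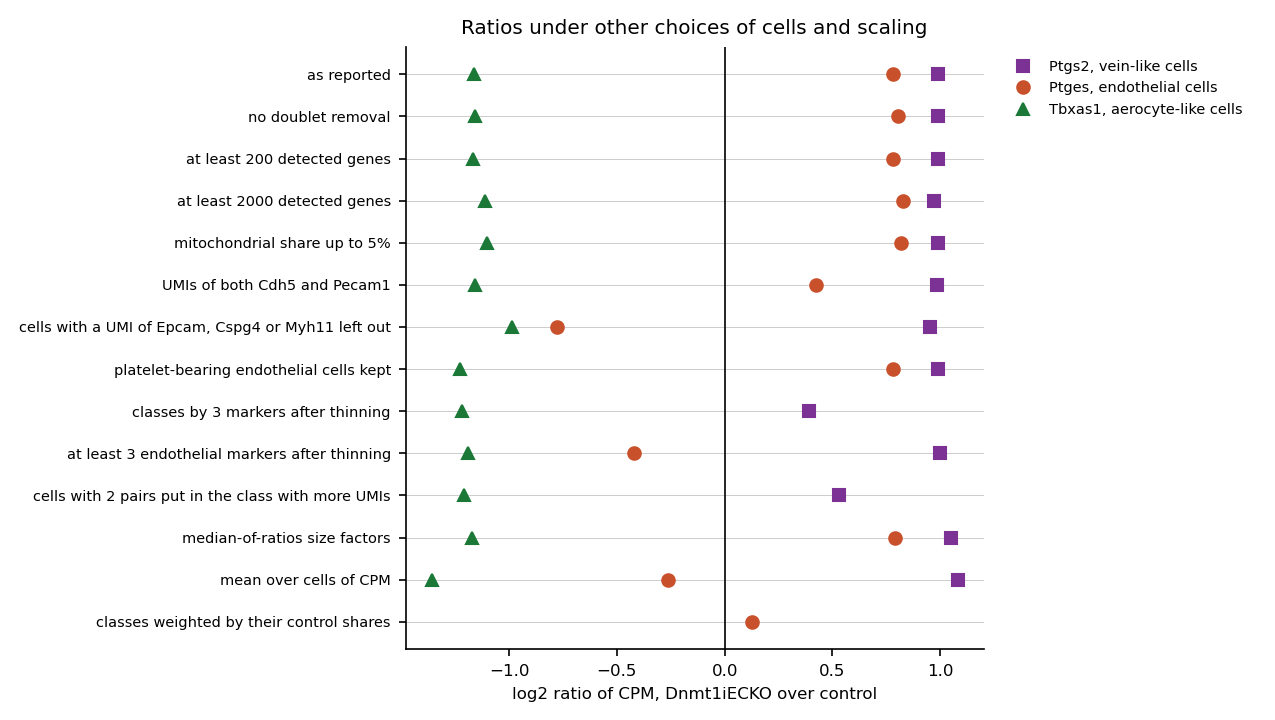
Log2 ratio of CPM, Dnmt1iECKO over control (horizontal axis), under each choice of cells and scaling (rows) for *Ptgs2* in vein-like cells (squares), *Ptges* in all ECs (circles) and *Tbxas1* in aerocyte-like cells (triangles). *Tbxas1* stays between -1.36 and -0.98 and *Ptgs2* between 0.39 and 1.08, while *Ptges* lies between -0.78 and 0.83.

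The genes with the most similar levels were sought by Pearson's r of log2(CPM + 10) over 44 points, the 22 cell classes in each library. These points share libraries and depth and the values are a description. For *Ptgs2* they were *Olr1* (0.85), *Ptgs2os* (0.79), which is transcribed at the *Ptgs2* locus, and *Trib1* (0.79). For *Ptgis* they were *C1ra* (0.92), *Ccdc80* (0.91) and *Col14a1* (0.91), for *Hpgd* *Thbd* (0.92), *Tspan7* (0.91) and *Fzd4* (0.90), and for *Tbxas1* *I830077J02Rik* (0.90), *Alox5ap* (0.88) and *Zeb2os* (0.86). *Ptger4* was nearest to *Runx3* (0.95), *Myo1g* (0.94) and *Pik3r5* (0.94), *Ptges* to *Ereg* (0.82), *Scara5* (0.80) and *Dnm1* (0.78), and *Ptgs1* to *Rab27b* (0.72), *Rnf144b* (0.72) and *Prcd* (0.71). Among the members themselves r ran from -0.55 for *Ptger4* and *Hpgd* to 0.47 for *Ptgs1* and *Ptges*.

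The genes lie apart in the genome (GENCODE M21, GRCm38). *Ptgs2* spans chr1:150100031-150108227 on the plus strand and overlaps no annotated gene, and *Hpgd* spans chr8:56294585-56321043 on the plus strand. *Ptgs1* (chr2:36230426-36252272, plus), *Ptgis* (chr2:167191805-167240604, minus), *Ptges* (chr2:30889471-30929863, minus) and *Ptgds* (chr2:25466709-25470046, minus) share a chromosome, *Tbxas1* spans chr6:38875404-39084585 on the plus strand and *Ptger4* chr15:5206661-5244187 on the minus strand. *Ptgis*, *Tbxas1* and *Ptger4* overlap 2, 3 and 1 other genes of the matrix.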

How the data were processed

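Live CD31+CD45- cells of 1 control and 1 Dnmt1iECKO pool of 3 mice were profiled by 10x 3′ single-cell RNA-seq. The UMI counts per gene and cell were deposited by the authors as filtered matrices made with Cell Ranger 9.0.1 (mm10, per the submitters' processing notes), with no normalization. Of the 32285 gene identifiers, 32158 were in GENCODE M21. Here cells with over 10% mitochondrial UMIs or under 500 detected genes were removed, then 257 control and 263 Dnmt1iECKO doublets by Scrublet in scanpy 1.11.5, at 0.4% per 1000 cells. Non-endothelial classes needed 3 markers of 1 list after thinning to 2000 UMIs. UMIs were summed per class and library, and levels, ratios and shares were given exact 95% intervals (scipy 1.17.1, Python 3.11.15, numpy 2.4.6, pandas 2.3.3, matplotlib 3.10.9). Count totals set the precision, and with 1 library per group no test was run. The members, pathway and marker lists were chosen with earlier results of these data known. Named genes are the 8 members, pathway genes past 1.5-fold with 50 UMIs, the pathway genes *Slco2a1* and *Ptgir*, named after their values were seen, and the 3 genes most similar to each member. On counts drawn from a Poisson model for general capillary-like cells, 95.6% of intervals held the true ratio. The interval is exact under that model, so this checks the calculation and not the spread between cells. Other filters, EC rules, class rules, scalings and fold limits were tried as alternatives.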

Additional observations from a re-analysis of the deposited data

Results flagged for a closer look

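For 4 genes the ratio of Dnmt1iECKO over control went one way in some cell classes and the other way in others, each with an interval that left out 0. The differences between classes were not tested, since each class has 1 library per condition. Higher and lower here mean above and below 0. *Ptgs1* was higher in platelet-like, fibroblast-like and mesothelium-like cells and lower in aerocyte-like and general capillary-like cells, and the log2 ratios of the platelet-like and aerocyte-like classes lay 1.90 apart. In platelet-like cells the fibroblast list summed to 2290 CPM in control and 145 CPM in Dnmt1iECKO and the tumor list to 515 and 9.70 CPM, and their part in this gap was not tested. The highest of 11 Dnmt1iECKO mesothelium-like cells held 71 of 206 *Ptgs1* UMIs. Without the highest cell of each library the *Ptgs1* levels were 233 and 287 CPM in mesothelium-like and 37.0 and 49.9 CPM in fibroblast-like cells. *Ptgs2* was higher in vein-like and general capillary-like cells and lower in fibroblast-like, mesothelium-like and macrophage-like cells, with 2.80 between general capillary-like and mesothelium-like cells, 2 classes in which 1 cell held much of the gene's UMIs. *Ptgis* was higher in macrophage-like and general capillary-like cells and lower in vein-like, aerocyte-like and mesothelium-like cells, with 2.37 between macrophage-like and aerocyte-like cells. The macrophage-like UMIs lay in 7 of 173 control and 28 of 450 Dnmt1iECKO cells, 1 cell held 66 of the 177 Dnmt1iECKO UMIs of general capillary-like cells, where the levels without the highest cells were 14.0 and 11.6 CPM, and the aerocyte-like ratio was -0.21 with cells of 2 pairs put in the class with more UMIs. *Hpgd* was higher in aerocyte-like, platelet-like and mesothelium-like cells and lower in vein-like, general capillary-like, artery-like and fibroblast-like cells, with 2.19 between platelet-like and artery-like cells. The platelet-like ratio came from 62 and 79 UMIs, beside 969 and 1096 CPM of the endothelial list, whose part was not tested. The artery-like ratio came to -0.21 under another choice. The highest of 11 mesothelium-like cells held 108 of 276 control and 150 of 407 Dnmt1iECKO UMIs.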

How the results depend on the processing

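No paired analysis was possible because each condition has 1 library. Requiring 3 endothelial markers and placing cells of 2 pairs by their UMIs were alternatives chosen after seeing the data. Over all ECs 4 of 77 recomputed ratios turned sign, 3 of them of a ratio whose interval left out 0, and within classes 12 of 192 did, 5 of them of such a ratio. The other 7 within classes were *Ptges*, in 5, and *Tbxas1*, in 2 choices, in general capillary-like cells, where both intervals hold 0. The cause of these moves was not tested. *Ptgs2* over all ECs was 1.75 with UMIs of both *Cdh5* and *Pecam1*, 1.88 without cells holding *Epcam*, *Cspg4* or *Myh11*, 1.78 with 3 endothelial markers, 1.85 as a mean over cells and 0.70 at control class shares. *Ptges* was 0.42, -0.78, -0.42, -0.27 and 0.13 under the same 5 choices, and *Hpgd* -0.24, -0.19, -0.19, -0.13 and -0.19, or -0.36 with at least 2000 detected genes. *Ptgis* was 0.16 with at least 200 detected genes, 0.45 without cells holding *Epcam*, *Cspg4* or *Myh11* and 0.051 at control class shares. *Ptgs1* was 0.17 as a mean over cells and -0.23 at control class shares. In general capillary-like cells *Ptgs2* turned to -0.15 with at least 200 detected genes, and *Ptgis* to -0.36 there, -0.097 with classes by 3 markers, -0.28 with 3 endothelial markers and -0.21 as a mean over cells. At 2-fold 1 pathway gene was higher over all ECs, and with at least 20 UMIs 3 were lower. *Ptger4* over all ECs ranged from -0.95 to -0.12.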
